A study of Homo sapiens with 12 samples.

Results

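Knockout of ZNF263 was compared with wild type in H1 cells, an established human embryonic stem cell line also named WA01. The comparison held 6 of the study's 12 RNA-seq libraries, 3 per group, taken by their sample titles, and was read across all expressed genes. The knockout libraries came from cells labelled as homozygous for a ZNF263 knockout, and the wild type libraries from cells labelled WT. The column names of both groups carry the tag vec, whose meaning the labels do not give. The other 6 libraries were 3 of knockout cells with ZIC2 overexpression and 3 of cells with ZNF263 overexpression, and they served here to estimate the spread and for 1 check. Poly(A) RNA was sequenced, and the stated purpose was to study how ZNF263 acts in pluripotency. The sources used here do not give the kind of edit, the number of knockout clones, or whether replicates were grown apart. Each p-value thus reflects the variation among these libraries alone, which could be technical, and an effect of ZNF263 cannot be told apart from any other difference between the knockout and wild type cells.

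ZNF263 is a DNA-binding protein with a row of C2H2 zinc fingers, a SCAN domain and a KRAB domain. KRAB domains are known to recruit TRIM28, a corepressor that brings H3K9 methylation to its targets, although zinc finger proteins with a SCAN domain do not all work in this way. Human embryonic stem cells in standard culture are in the primed state. NODAL and activin signalling through SMAD2 and SMAD3, together with FGF signalling through ERK, maintain this state, and BMP signalling drives the cells towards differentiation. ZIC2, DUSP6 and SFRP1 are typical of primed cells, and KLF4, KLF5 and TFAP2C of the naive state.

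The libraries held 17175183 to 21804410 counts, except knockout replicate 1 with 43464609. A total of 15437 genes passed the expression filter. Levels are given as CPM, the counts scaled to library size with TMM factors. The fold change between knockout and wild type followed the GC content of the genes (Spearman's rho 0.43 across genes, as a description). In each of the 6 libraries the same trend was present when that library was set against the mean of all 12, upwards in the 3 knockout libraries (rho 0.24, 0.29 and 0.27) and downwards in the 3 wild type libraries (rho -0.39, -0.42 and -0.36). The trend was also upwards in the 3 libraries of knockout with ZIC2 and downwards in the 3 of ZNF263 overexpression. The labels give no batch, so preparation of the libraries and genotype cannot be told apart as its source.

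**Figure D1:**
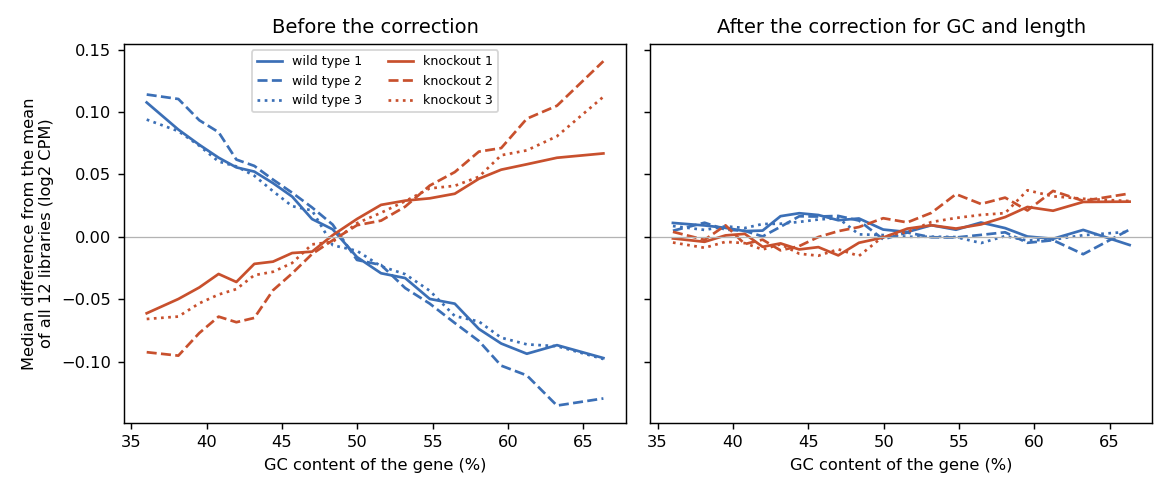
Median difference of each library from the mean of all 12 libraries (log2 CPM) against GC content (percent), in 20 bins of genes, for the 3 wild type (blue) and 3 knockout (red) libraries. Before the correction the lines of the groups cross near 50% GC; afterwards all 6 lie close to 0.

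A second fit removed from each library, without use of its group label, a smooth trend on GC content and exonic length. The rho of the fold change with GC was then 0.04. The uncorrected fit called 3095 genes higher in knockout (20% of genes tested) and 2856 lower (18.5%), at an adjusted p under 0.05 in edgeR's quasi-likelihood test. The corrected fit called 2412 higher (15.6%) and 2101 lower (13.6%). Genes were divided into 5 equal groups by GC content. In the group with the lowest GC, 4.73% were called higher and 44% lower without the correction, against 13.3% and 14.4% with it. In the group with the highest GC the shares were 42% and 4.33% without, and 20.5% and 12.2% with it. The plot of calls by GC content shows that the corrected calls were spread far more evenly, with an excess of higher calls left among GC-rich genes. The correction removes a smooth trend whatever its source, so the results below lead with the genes called in the same direction by both fits. Log2 fold changes (knockout minus wild type), their standard errors (SE) and adjusted p-values below are from the corrected edgeR fit, unless the uncorrected value is named.

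**Figure D2:**
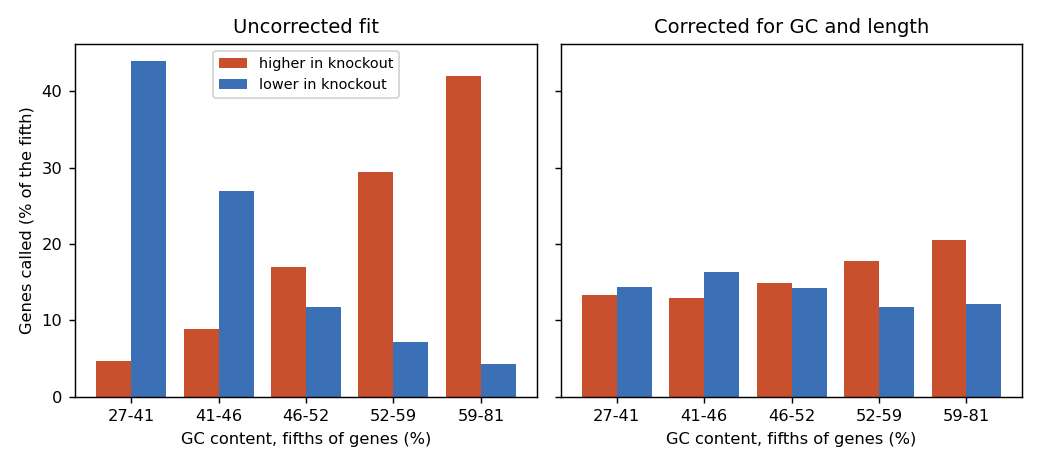
Genes called higher (red) and lower (blue) in knockout, as a percent of the genes in each of 5 equal groups by GC content (x axis, percent), in the uncorrected and the corrected fit. The share called lower in the lowest GC group was 44% in the uncorrected and 14.4% in the corrected fit.

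Both fits called 3591 genes (23.3% of those tested), of which 1976 were higher (12.8%) and 1615 lower (10.5%). Most of these changes were small: 58.9% of the higher and 59.4% of the lower genes changed by less than 1.25-fold. A change of more than 2-fold was found for 170 higher and 88 lower genes, and of more than 4-fold for 17 and 11. The CPM of the 3 knockout libraries did not overlap that of the 3 wild type libraries for 96.2% of the higher and 93.7% of the lower genes, against 46.7% of all genes tested. The changes were spread over the genome, although the shares called in both fits differed between chromosomes. They were 19.7% higher and 4.85% lower on chromosome 19 (median GC content 59.4%), and 7.94% and 14.8% on chromosome 13 (43.2%). The median log2 fold change per chromosome ran from -0.04 on chromosome 13 to 0.02 on chromosome 19, where the uncorrected fit gave -0.10 and 0.12. Of 18 tested genes on the Y chromosome, 6 were lower in both fits. For 1 of these the fall was larger than for any gene named here, and the other 5 fell by less than 2-fold. Levels of Y-linked genes are not given, and none is among the genes named or plotted.

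ZNF263 (chromosome 16, 3333487 to 3341459, plus strand, hg19) was measured at 40.7, 38.8 and 38.2 CPM in wild type and 30.9, 31.1 and 31.2 CPM in knockout. All 3 knockout libraries lay below all 3 wild type libraries, but the transcript was still present, and its log2 fold change was -0.41 (SE 0.06, adjusted p = 2.53e-06). Counts over the whole gene do not show whether the remaining RNA holds an edit. Of 33 tested genes within 500 kb of ZNF263, 7 were higher and 0 lower in both fits, and their median log2 fold change went from 0.07 to -0.04 with the correction. For all genes tested the shares were 12.8% and 10.5%, and in the highest of 5 GC groups 20.5% and 4.33%. The median GC content of the 33 genes was 59.3%. The corrected fit called KREMEN2, PAQR4 and MMP25 lower (log2 fold changes -0.34, -0.27 and -0.19). THOC6 and HCFC1R1, both among the higher genes, overlap on opposite strands, so their counts are not separate observations. The same limit applies to PAQR4 and PKMYT1, which overlap on opposite strands and of which PKMYT1 is among the higher genes. At an unadjusted p under 0.05 in both edgeR fits 2 of the 33 were lower, and DESeq2 called 1 lower. Without wild type replicate 3, the count of higher genes was 4. The tested genes nearest to ZNF263, namely TIGD7, ZNF75A, ZNF200, ZSCAN32 and ZNF174, were not called. The clearest rise in this region was that of TNFRSF12A, the receptor of the cytokine TWEAK, from 44.2, 46.8 and 48.5 to 64.8, 83.04 and 71.3 CPM, with a log2 fold change of 0.64 before and 0.39 after the correction. CLDN6, a tight junction claudin typical of stem cells, was at 643, 592 and 617 CPM in wild type and 752, 829.8 and 749 CPM in knockout (log2 fold change 0.16).

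The largest rise among genes with at least 5 CPM was that of FAM109B (current symbol PHETA2; chromosome 22, 42470255 to 42475442, hg19), which encodes a protein of endosomal trafficking. It was at 0.404, 0.267 and 0.333 CPM in the wild type libraries and 6.92, 8.48 and 6.34 CPM in the knockout libraries. The pooled counts were 19 and 594, a ratio of 21.4 with an exact 95% interval of 13.6 to 35.8 that covers counting error only. ANXA1 (chromosome 9, 75766647 to 75785310), which encodes the membrane-binding protein annexin A1, rose from 4.22, 3.41 and 5.19 to 17.3, 23.03 and 22.99 CPM (log2 fold change 2.29, SE 0.12, adjusted p = 1.83e-16). DNAJA4, an HSP70 co-chaperone, rose from 4.39, 3.20 and 3.86 to 17.6, 17.5 and 17.95 CPM (log2 fold change 2.21). The knockout values of these 3 genes lay far above every wild type value.

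Genes of muscle actins stood out among the rises. ACTA1, the actin of skeletal muscle (chromosome 1, 229566993 to 229569843), was at 12.1, 10.2 and 14.6 CPM in wild type and 58.2, 67.9 and 66.9 CPM in knockout (log2 fold change 2.19, SE 0.07, adjusted p = 1.59e-21). ACTC1, the cardiac actin, rose from 61.5, 54.2 and 61.2 to 171, 215 and 196 CPM, and ACTG2, the enteric smooth muscle actin, from 5.32, 4.27 and 5.62 to 16.2, 19.3 and 17.9 CPM. The coding sequences of the actins are very alike, so uniquely aligned reads may be divided among them unevenly. ACTA2, the vascular smooth muscle actin, was at 0.924, 1.81 and 1.14 CPM and 0.979, 1.58 and 1.31 CPM and was not called (log2 fold change -0.16, SE 0.27). The other large rises were RGS9, a regulator of G protein signalling (2.20, 1.97 and 1.67 to 6.73, 6.85 and 7.41 CPM), the long noncoding RNA CYTOR (1.85, 1.55 and 1.67 to 5.50, 6.80 and 6.30 CPM), the metallothionein MT1X (4.39, 4.69 and 3.29 to 13.1, 15.4 and 16.2 CPM) and CER1, a secreted antagonist of NODAL and BMP (6.76, 7.25 and 7.95 to 24.6, 25.7 and 25.2 CPM). TXNRD2, a mitochondrial thioredoxin reductase, rose from 8.55, 7.73 and 7.57 to 24, 30.9 and 27.7 CPM, and its counts are uncertain because the library kit does not mark strand.

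The ribosomal RNA precursor RNA45S5 also rose by the same rule, on an unplaced contig and with no GC value. It was at 724, 551 and 464 CPM in wild type and 2602, 1520.4 and 1237 CPM in knockout. Knockout replicate 1 lay well above the other 2 knockout libraries. This RNA is not polyadenylated. Its part in the other results was not tested.

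**Figure D3:**
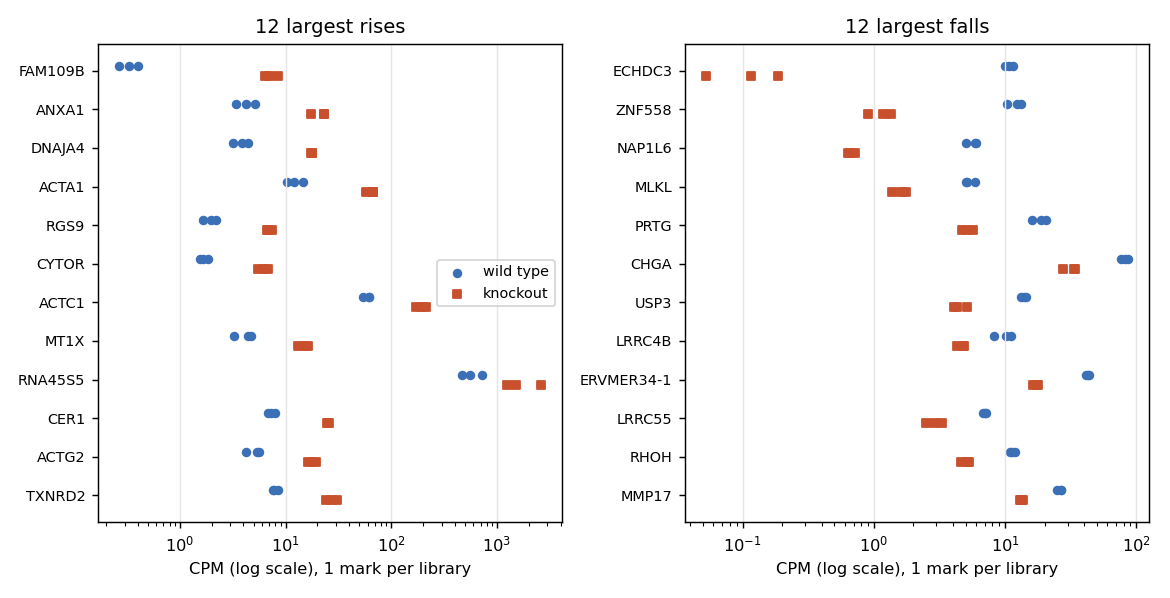
CPM (log axis) of the 12 largest rises and the 12 largest falls in the 3 wild type (blue circles) and 3 knockout (red squares) libraries, 1 mark per library. The marks of the groups do not overlap for any of the 24 genes, as the rule that chose them required.

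Outside the Y chromosome, the largest fall among genes with at least 5 CPM was that of ECHDC3 (chromosome 10, 11784356 to 11806065, hg19). This gene encodes a mitochondrial protein related to the enoyl-CoA hydratases of fatty acid oxidation. It was at 9.995, 10.8 and 11.5 CPM in wild type and 0.116, 0.0527 and 0.187 CPM in knockout. Pooled counts were 617 and 10, which put the knockout 90.1-fold lower (exact 95% interval 48.7 to 189, counting error only). ZNF558, a KRAB zinc finger gene on chromosome 19 (8920252 to 8942980), fell from 10.4, 12.3 and 13.3 to 1.16, 0.896 and 1.35 CPM (log2 fold change -3.31, SE 0.14, adjusted p = 5.35e-19). NAP1L6 (current symbol NAP1L6P), annotated as a transcribed pseudogene of the nucleosome assembly protein family on the X chromosome, fell from 5.95, 5.92 and 5.001 to 0.722, 0.632 and 0.653 CPM. In none of these did any knockout library come near the wild type level.

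MLKL, the executioner of necroptosis, fell from 5.14, 5.07 and 5.86 to 1.61, 1.37 and 1.77 CPM (log2 fold change -1.71). PRTG, which encodes protogenin, a surface receptor of early neural and paraxial tissue, fell from 16, 20.6 and 18.6 to 5.73, 5.11 and 4.66 CPM (log2 fold change -1.62), and the deubiquitinase gene USP3 from 13.3, 14.5 and 14.1 to 4.31, 4.11 and 5.13 CPM. CHGA, the granule protein chromogranin A of neuroendocrine cells, was the most abundant gene among the falls, at 81.4, 85.9 and 76.8 CPM in wild type and 27.4, 34.2 and 33.7 CPM in knockout (log2 fold change -1.55, SE 0.05, adjusted p = 4.26e-21). ERVMER34-1, the envelope gene of an endogenous retrovirus that is active in stem cells, fell from 43.1, 41.4 and 43.5 to 17.9, 17.4 and 16.4 CPM. LRRC4B, LRRC55, RHOH and MMP17 completed the 12 largest falls, with log2 fold changes of -1.26, -1.22, -1.19 and -1.15. Just beyond the 12 largest on either side were the caveolin gene CAV2 (log2 fold change 1.61) and the transcribed zinc finger pseudogene ZNF788 (current symbol ZNF788P; -1.14).

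ZNF263 is known to bind GA-rich DNA with runs of GGA. The 8 letters GGAGGAGG were searched on both strands of the 250 bases before the start of 11910 tested genes with a RefSeq promoter (GRCh38.p14). They were found in 11.6% of these promoters, in 13.2% of those of genes higher in both fits, in 12.6% of lower and in 11.2% of uncalled genes. For genes that changed by more than 2-fold the shares were 10.3% of 117 higher and 13.3% of 60 lower. The shares also depend on the GC content of the promoter, given here from the lowest to the highest of 5 GC groups. For uncalled genes they rose from 4.89% through 8.50%, 11.7% and 14.2% to 17.6%. Among higher genes they were 7.77%, 15.7%, 15.3%, 12.9% and 14.0%. For lower genes the values were 5.23%, 13.5%, 10.6%, 15.7% and 19.2%. Differences within a GC group thus went in both directions and were not tested. Of the 24 largest changes, 20 matched a promoter in the table, and 2 of these held the letters. Their windows are shown 5′ to 3′ on the gene's strand, with a match in capitals as its reverse complement. They are 1 rise, RGS9 (chr17:65137120-65137196, plus strand, match 221 bases before the start), and 1 fall, ERVMER34-1 (chr4:52751618-52751675, minus strand, match 240 bases before the start).
RGS9: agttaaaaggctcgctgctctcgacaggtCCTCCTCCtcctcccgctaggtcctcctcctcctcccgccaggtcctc
ERVMER34-1: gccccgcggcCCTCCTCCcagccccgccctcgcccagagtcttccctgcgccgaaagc
The RGS9 window holds further GGA runs beyond the one in capitals. A match describes the letters and is not a measured binding site.

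At low levels, 22 genes called in both fits moved between a mean under 1 CPM and a mean of at least 2 CPM, 15 of them upwards and 7 downwards. These thresholds were chosen after the values were seen. S100A6, a calcium-binding protein gene, was at 3.64, 3.09 and 3.33 CPM in wild type and 0.163, 0.0527 and 0.233 CPM in knockout, and the pooled counts put the knockout 21.5-fold lower (12.3 to 41.1). NPPB, the natriuretic peptide gene, was at 0.173, 0.427 and 0.953 CPM in wild type and 2.96, 6.22 and 4.66 CPM in knockout. TMEM119 rose from 0.636, 0.320 and 0.714 to 3.29, 3.64 and 4.01 CPM. The pseudogene HSD17B7P2 had 1 count in the 3 wild type libraries together and 243 in the knockout libraries; with so few wild type counts the ratio of 166 has an interval of 29.6 to 6597. It is a near copy of HSD17B7, so its counts are uncertain.

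Below 2 CPM, 2 genes at the end of the short arm of chromosome 8 appeared in knockout. They overlap on opposite strands, and without strand their reads cannot be told apart there, so their counts are not separate observations. ZNF596 (182137 to 197340, hg19) had 0 counts in the 3 wild type libraries and 161 in the knockout libraries, at least 36.7-fold higher when 3 counts over the wild type group are taken as the floor. RPL23AP53 (158345 to 182318), a pseudogene of a ribosomal protein whose reads may be shared with other copies, had 2 and 164 counts, a ratio of 56.1 (15.3 to 467). PKLR, the liver and red cell pyruvate kinase, went the other way, with 56 counts in wild type and 3 in knockout, 27.3-fold lower (8.86 to 136). Its exons overlap those of HCN3 on the other strand. These 3 genes were picked after their values were seen.

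The other results are given by lists of genes with related roles. There were 37 lists with 635 distinct members tested, and counts below are of genes called in both fits. Each count can be read against the 12.8% of all genes called higher and the 10.5% called lower. These shares depended on GC content. They were 4.73% higher and 14.4% lower in the lowest of the 5 GC groups, and 20.5% and 4.33% in the highest. The median GC content of the lists ran from 45.7% (endoderm) to 60.3% (collagens), so a single background does not suit every list equally. For each list with 0 members lower, the count was also 0 at an unadjusted p under 0.05 in both edgeR fits and in DESeq2, except for 1 respiratory chain gene that DESeq2 called lower. Counts of 1 or 2 members moved by 1 or 2 in several lists when a single library was left out.

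**Figure D4:**
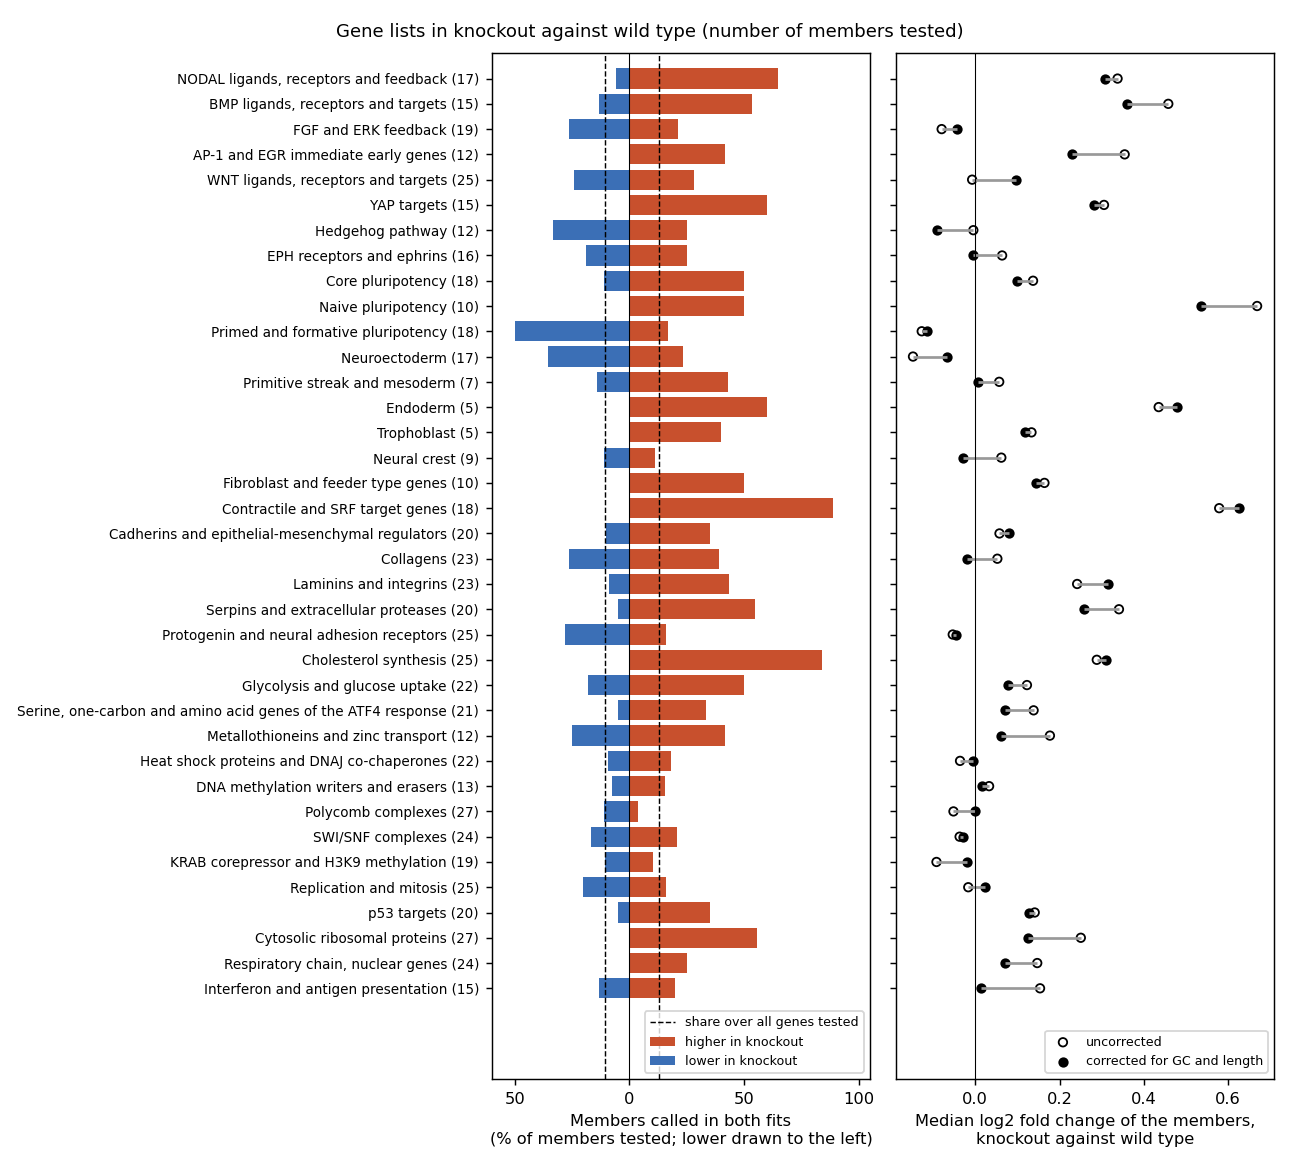
Left, members of each of 37 gene lists called higher (red, to the right) or lower (blue, to the left) in both fits, as a percent of the members tested (number in brackets), with dashed lines at the shares over all genes. Right, median log2 fold change of the members in the uncorrected (open) and corrected (filled) fit. Contractile genes (16 of 18) and cholesterol genes (21 of 25) have the highest shares called higher, and primed pluripotency genes (9 of 18) the highest share called lower.

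Several genes of the naive state rose in knockout and several primed markers fell, while SOX2 and NANOG were not called. Of 10 naive genes tested, 5 were higher and 0 lower. The transcription factor gene TFAP2C rose from 3.06, 2.24 and 3.48 to 8.55, 8.80 and 8.72 CPM (log2 fold change 1.54, adjusted p = 2.21e-11), KLF4 from 2.02, 2.13 and 2.29 to 5.64, 6.96 and 6.81 CPM and KLF5 from 1.79, 1.33 and 2.001 to 3.61, 3.79 and 4.10 CPM. All 3 stayed under 10 CPM, and 6 of the 16 genes of the list were too low to test. Of 18 primed and formative genes, 3 were higher and 9 lower. ZIC2 itself fell from 212, 209 and 205 to 157, 159 and 152 CPM (log2 fold change -0.52, SE 0.04, adjusted p = 4.01e-13), its paralogue ZIC5 from 97.2, 101 and 94.8 to 76.5, 80.4 and 81.2 CPM, and PTPRZ1, a receptor phosphatase, from 342, 386 and 375 to 243, 195 and 221 CPM.

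The core pluripotency list had 9 of 18 members higher and 2 lower. SOX2 was at 392, 374 and 375 CPM in wild type and 381, 402 and 399.6 CPM in knockout and was not called (log2 fold change 0.02, SE 0.03). NANOG, at 82.9, 78.8 and 78.7 and 86.3, 89.8 and 81.6 CPM, was also not called (log2 fold change 0.06, SE 0.04). For POU5F1 the log2 fold change was 0.44 (SE 0.10, adjusted p = 0.000973), but its entry in the table spans several loci, and the value is uncertain. LIN28A, an RNA-binding protein that blocks let-7, rose from 2214, 2145 and 2125 to 2460.3, 2549 and 2457 CPM, whereas its paralogue LIN28B fell by a log2 of 0.13 and L1TD1, an RNA-binding protein of stem cells, by 0.15. UTF1 rose from 6.64, 4.91 and 5.76 to 11.8, 13.5 and 11.1 CPM.

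In the NODAL pathway, 11 of 17 members were higher and 1 lower, and the median log2 fold change was 0.31 against -0.01 for all genes. The ligand gene NODAL rose from 25.2, 25.7 and 25.4 to 66.1, 78.7 and 62.4 CPM (log2 fold change 1.33, SE 0.06, adjusted p = 1.04e-17). Its feedback inhibitors rose with it: LEFTY1 from 20.3, 16 and 17.7 to 35.6, 40.04 and 35.9 CPM, LEFTY2 with a log2 fold change of 1.04, and CER1 as above. The signal transducer gene SMAD3 and the inhibitory SMAD7 rose by log2 fold changes of 0.34 and 0.31. The type I receptor gene ACVR1B was the member that fell (-0.24).

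The BMP list had 8 of 15 members higher and 2 lower. The ligand gene BMP4 rose from 4.68, 4.53 and 4.67 to 12.1, 15.5 and 13.8 CPM (log2 fold change 1.46, SE 0.11), and BMP7 by 0.75. Among targets, ID4 rose from 12.8, 12 and 11 to 17.9, 19.2 and 19.9 CPM and ID1 by 0.31, whereas ID2 fell from 17.3, 16.4 and 18.2 to 15.2, 15.4 and 12.3 CPM (log2 fold change -0.29) and ID3 was not called (-0.09, SE 0.04). The count of lower members was 0 without knockout replicate 3 and 1 without wild type replicate 3. The antagonists BAMBI and GREM1 rose by 0.48 and 0.79.

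Feedback genes of FGF and ERK signalling went in both directions, with 4 of 19 higher (2 without knockout replicate 3, wild type replicate 2 or wild type replicate 3) and 5 lower. DUSP6, the ERK phosphatase, fell from 202, 211 and 208 to 124, 125 and 119 CPM (log2 fold change -0.74, SE 0.03, adjusted p = 6.81e-19). The ETS factor gene ETV5 fell by a log2 of 0.30 and SPRY2, an inhibitor of receptor tyrosine kinase signalling, by 0.26. In contrast, the ligand gene FGF8 rose from 2.72, 2.45 and 2.81 to 7.41, 7.90 and 7.97 CPM. Among 12 immediate early genes, 5 were higher and 0 lower: JUN rose from 22.6, 22.7 and 24.4 to 46.1, 46.3 and 52.7 CPM, and ATF3, MYC, FOSL2 and JUND by log2 fold changes of 0.59, 0.39, 0.92 and 0.39. FOS was not called, at -0.19 (SE 0.09), but passed as lower without knockout replicate 1 (log2 fold change -0.31, adjusted p = 0.0186). EGR1 was also not called, but the corrected fit called it lower under several other settings. Among these were the fits without knockout replicate 2 (-0.31, adjusted p = 0.0314) and without wild type replicate 3 (-0.32, adjusted p = 0.0497).

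WNT pathway genes were split, with 7 of 25 higher and 6 lower, and the median of the list changed sign with the correction, from -0.01 to 0.10. SFRP1, a secreted WNT antagonist and one of the more abundant genes here, fell from 944, 971 and 957 to 606, 558 and 609 CPM (log2 fold change -0.70, SE 0.03, adjusted p = 8.20e-21). SFRP2 fell by a log2 of 0.33 and FRZB by 0.52, and the receptor gene FZD2 by 0.62. The receptor gene FZD5 rose from 103, 111 and 114 to 175, 156 and 172 CPM, and the target AXIN2 by 0.21. Hedgehog genes (3 of 12 higher, 4 lower, or 2 lower without knockout replicate 2) and EPH receptors and ephrins (4 of 16 higher, 3 lower) were likewise mixed.

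The contractile list had the highest share of rises of all lists. Of 18 members, 16 were higher in both fits and 0 lower, with a median log2 fold change of 0.63. Many of these genes are known targets of serum response factor (SRF). TAGLN, the smooth muscle protein transgelin, rose from 185, 157 and 169 to 436, 574 and 505 CPM (log2 fold change 1.39, SE 0.05, adjusted p = 6.94e-21), and the calponin gene CNN1 from 18.8, 16.1 and 18.4 to 44.3, 58.01 and 56 CPM. The myosin light chain gene MYL9 rose by a log2 fold change of 0.79, and CALD1, TPM1 and SRF itself by 0.70, 0.60 and 0.28. The rise reached abundant cytoskeletal genes, though it was smaller there: ACTB was at 4979.9, 4599.8 and 4755 CPM in wild type and 5956, 6503 and 6079 CPM in knockout (log2 fold change 0.26), and FLNA and PFN1 rose by 0.29 and 0.26.

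YAP target genes rose too, with 9 of 15 higher and 0 lower. CYR61 rose from 81.4, 79.6 and 78.8 to 156, 175 and 177 CPM (log2 fold change 1.04, SE 0.04) and CTGF from 167, 156 and 162 to 276, 315 and 306 CPM (log2 fold change 0.84); both encode matricellular proteins. AMOTL2 rose by 0.42 and the YAP partner TEAD4 by 0.36. CAV1, the main protein of caveolae, rose from 20.7, 17.5 and 19.9 to 49.7, 59.4 and 60.1 CPM, and LCP1, the actin bundler plastin, from 12.3, 11.3 and 12.6 to 31.6, 38.6 and 37.9 CPM.

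Genes of the cell surface and matrix followed in part. Laminins and integrins had 10 of 23 higher (7 without knockout replicate 1, 12 without knockout replicate 2) and 2 lower. The integrin gene ITGB5 rose from 416, 408 and 427 to 583, 581 and 594 CPM, and ITGA6 fell by a log2 of 0.24. Of 20 serpins and extracellular proteases, 11 were higher and 1 lower. SERPINB9, an inhibitor of granzyme B, rose from 31.2, 26.98 and 26.2 to 61.1, 59.1 and 56.8 CPM (log2 fold change 1.15, SE 0.06, adjusted p = 3.32e-16), the metalloproteinase gene ADAM19 by 0.79 and the plasminogen activator gene PLAU by 0.40. Collagens were divided, 9 of 23 higher and 6 lower, with a median of 0.05 before and -0.02 after the correction. COL12A1 rose from 7.05, 6.51 and 7.67 to 17.6, 16.4 and 19.6 CPM. Among cadherins and regulators of epithelial-mesenchymal transition, 7 of 20 were higher and 2 lower. CDH2 (N-cadherin) and VIM (vimentin) rose by 0.42 and 0.49, CDH1 (E-cadherin) was at 261, 269 and 261 CPM and 287, 262 and 273 CPM and was not called, but passed as higher without knockout replicate 2 (log2 fold change 0.08, adjusted p = 0.0343) and under a stricter filter of 5 CPM (0.09, adjusted p = 0.0123), and ZEB2, a repressor of CDH1, fell from 0.809, 1.33 and 1.38 to 0.326, 0.474 and 0.326 CPM.

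Of 25 genes of cholesterol synthesis and uptake, 21 were higher and 0 lower, with a median log2 fold change of 0.29 before and 0.31 after the correction. MVD, the decarboxylase of the mevalonate pathway, rose from 139, 134 and 144 to 229, 256 and 224 CPM (log2 fold change 0.56, SE 0.03, adjusted p = 3.59e-15), and LSS, the lanosterol synthase, from 274, 275 and 281 to 386, 377 and 377 CPM. HMGCS1, another enzyme of the mevalonate pathway, and INSIG1, a sterol-regulated inhibitor of the SREBP factors, rose by log2 fold changes of 0.36 and 0.39. The fatty acid synthase gene FASN, at 1517, 1582 and 1676 CPM in wild type and 2297, 2043 and 2216 CPM in knockout, rose by 0.36. Each of these changes was under 2-fold.

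Glycolysis genes had 11 of 22 higher and 4 lower. PKM and ALDOA, abundant enzymes of the lower and middle part of the pathway, rose by 0.39 and 0.36, while PDK1, which limits entry of pyruvate into mitochondria, fell from 29.5, 27.1 and 27.5 to 19.9, 18.4 and 17.5 CPM and the glucose transporter gene SLC2A3 by a log2 of 0.18. Genes of the ATF4 response had 7 of 21 higher and 1 lower, led by SLC7A5, a subunit of an amino acid transporter, which rose from 587, 570 and 595 to 913, 943 and 943 CPM. Metallothionein and zinc transport genes had 5 of 12 higher and 3 lower. Besides MT1X, MT2A rose from 0.462, 0.320 and 0.524 to 1.70, 2.002 and 1.82 CPM and the zinc exporter gene SLC30A1 by 0.39. p53 target genes had 7 of 20 higher and 1 lower, or 3 higher without wild type replicate 2, and the polo-like kinase gene PLK2 rose from 16.2, 18.7 and 17.9 to 45.03, 46.6 and 48.7 CPM (log2 fold change 1.43). Heat shock genes (4 of 22 higher, 2 lower, or 4 lower without knockout replicate 2) were close to the background, with HSPA2 at 0.71.

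Several large lists had fewer calls with the correction. A count in both fits can never exceed the uncorrected count, so the corrected count is given beside it where available. Cytosolic ribosomal protein genes had 21 of 27 higher and 0 lower without the correction, and 15 higher and 2 lower in the corrected fit. In both fits 15 were higher, still above the share over all genes. The median log2 fold change of the list went from 0.25 to 0.12. Nuclear genes of the respiratory chain went from 15 of 24 higher to 6 in the corrected fit, with 1 lower in each. In both fits 6 were higher, or 2 without wild type replicate 2. The medians were 0.15 before and 0.07 after the correction. In Polycomb complexes 5 higher and 9 lower of 27 became 2 and 4 in the corrected fit, and 1 and 3 in both fits. EZH2, the H3K27 methyltransferase, was among those lower in both (-0.20). Among genes of the KRAB corepressor and H3K9 methylation, 3 higher and 8 lower of 19 became 2 and 3 in the corrected fit. In both fits 2 were higher and 2 lower. TRIM28, the corepressor itself, rose from 1196, 1169 and 1193 to 1514, 1531 and 1519 CPM (log2 fold change 0.22), and CBX1, a heterochromatin protein, fell by a log2 of 0.23. Zinc finger genes on chromosome 19, with a median GC content of 42.8%, went from 22 higher and 53 lower of 246 to 13 and 15 in both fits. Those on other chromosomes, with a median of 45.5%, went from 26 higher and 83 lower of 278 to 13 and 43.

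DNA methylation genes (2 of 13 higher, 1 lower) were close to the background, and SWI/SNF subunits were called in both directions (5 of 24 higher, 4 lower). The SWI/SNF counts rested on single libraries: 1 was higher and 2 were lower without wild type replicate 2, and 1 was lower without wild type replicate 3 or without knockout replicate 2. MBD3, a NuRD subunit, rose from 129.9, 128 and 132 to 183, 197 and 178 CPM, and SMARCA2 from 12.2, 10.3 and 10.5 to 15.96, 15.6 and 14.5 CPM. Replication and mitosis genes were split, 4 of 25 higher and 5 lower: the helicase gene MCM6 rose by 0.27, and TOP2A and CENPF, which peak in G2 and mitosis, fell by a log2 of 0.33 and 0.28. Interferon and antigen presentation genes had 3 of 15 higher and 2 lower, among them IFITM1, which rose from 50.3, 44.6 and 43.5 to 74.3, 83.9 and 66.5 CPM.

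Markers of pluripotent cells were the most abundant of the cell type markers in all 6 libraries. The summed level of 7 pluripotent markers was 5702 to 5773 CPM in wild type and 6412 to 6452 CPM in knockout. Of 8 fibroblast or feeder markers, COL3A1, DCN, LUM and FAP were under 1 CPM in all 6 libraries, and the sum of the list was 169 to 177 CPM in wild type and 226 to 236 CPM in knockout, with COL1A1 rising from 71.1, 66.3 and 70.3 to 103, 116 and 112 CPM. The sums ran from 9.33 to 10.8 CPM in wild type and from 13.0 to 16.3 CPM in knockout for endoderm markers, and from 5.14 to 5.44 CPM and from 5.66 to 7.27 CPM for trophoblast markers. The endoderm rise came mostly from AFP. FOXA2 was not called, and SOX17, GATA4 and GATA6 were under 1 CPM in all 6 libraries. Most of the trophoblast sum was KRT7, which was not called, and CDX2, CGA, VGLL1 and TFAP2A were under 1 CPM in all 6 libraries. Mesoderm markers summed to 130 to 132 CPM in wild type and 92.9 to 112 CPM in knockout. Nearly all of this was KDR, which fell from 127, 129.8 and 129.5 to 109, 88.99 and 99.9 CPM. MIXL1 went the other way, from 0.982, 1.17 and 1.33 to 2.03, 2.32 and 1.82 CPM, and was called higher. T, EOMES, MESP1 and TBX6 were under 1 CPM in all 6 libraries. The longer list of primitive streak and mesoderm genes had 3 of 7 higher and 1 lower, or 1 higher without wild type replicate 1. In these bulk samples, a change in the share of some cells and a change in RNA per cell cannot be told apart.

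Neuroectoderm genes had 4 of 17 higher and 6 lower. MAP2, a microtubule protein of neurons, fell from 39.2, 49.3 and 47.1 to 17.6, 18.5 and 21.9 CPM (log2 fold change -1.12, SE 0.07, adjusted p = 3.20e-14), and POU3F1 from 29.2, 29.3 and 29.7 to 19.2, 23.2 and 21.5 CPM, whereas NES (nestin) and TUBB3 rose by 0.33 and 0.32. The 6 early neural markers, PAX6 and SOX1 among them, gave a summed level of 8.08 to 9.85 CPM in wild type and 7.64 to 8.82 CPM in knockout, ranges that overlap. Most of each sum came from DCX and PAX6. Of the 4 markers tested, 2 were lower in both fits, both under 1 CPM in all 6 libraries. LHX2 fell from 0.924, 0.853 and 0.904 to 0.373, 0.316 and 0.233 CPM. SIX3 was the other, at 0.635, 0.853 and 0.571 CPM in wild type and 0.0931, 0.685 and 0.0466 CPM in knockout, ranges that overlap. It was not called in both fits without knockout replicate 1, knockout replicate 3 or wild type replicate 2. The call was also lost when only the 6 libraries compared were fitted. Of 5 tested endoderm genes, from a list of 12, 3 were higher, among them AFP (5.49, 5.17 and 4.91 to 7.78, 9.59 and 7.88 CPM) and CXCR4 (1.56, 1.71 and 1.48 to 3.54, 3.003 and 3.22 CPM). Of 5 tested trophoblast genes, also from a list of 12, 2 were higher (1 without knockout replicate 3), and GATA3 stayed near 1 CPM (0.231, 0.320 and 0.333 to 1.14, 0.896 and 1.07 CPM).

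The genes called in the 6 libraries compared were also read in the 6 libraries outside the comparison, as knockout with ZIC2 against ZNF263 overexpression. This contrast shares no library with the first, but it uses the same knockout cells, differs in ZIC2 and in the dose of ZNF263, and has the same split in the GC trend. Both fits called 11.7% of genes higher and 12.1% lower in it. Of the 1976 genes higher in knockout, 52.8% were also called higher there and 0.405% lower. Of the 1615 lower genes, 57.5% were also called lower and 1.98% higher. As shares of that contrast's own calls, these overlaps were 58.0% of its higher and 49.8% of its lower genes. Among changes of more than 2-fold, 130 of 170 higher genes were called the same way and 0 the other way, against 47 of 88 and 6 for lower genes. CHGA and LRRC55 were among the falls with other values there. CHGA was at 121, 113 and 110.2 CPM in knockout with ZIC2 and 87.8, 90.4 and 86.5 CPM under overexpression, and LRRC55 at 10.3, 9.99 and 9.37 and 7.91, 8.87 and 8.94 CPM. ECHDC3 (0.203, 0.607 and 0.293 against 10.2, 10.4 and 10.7 CPM) and FAM109B (7.29, 7.45 and 6.27 against 0.273, 0.333 and 0.136 CPM) kept to their direction, as the plot of both contrasts shows for most large changes.

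**Figure D5:**
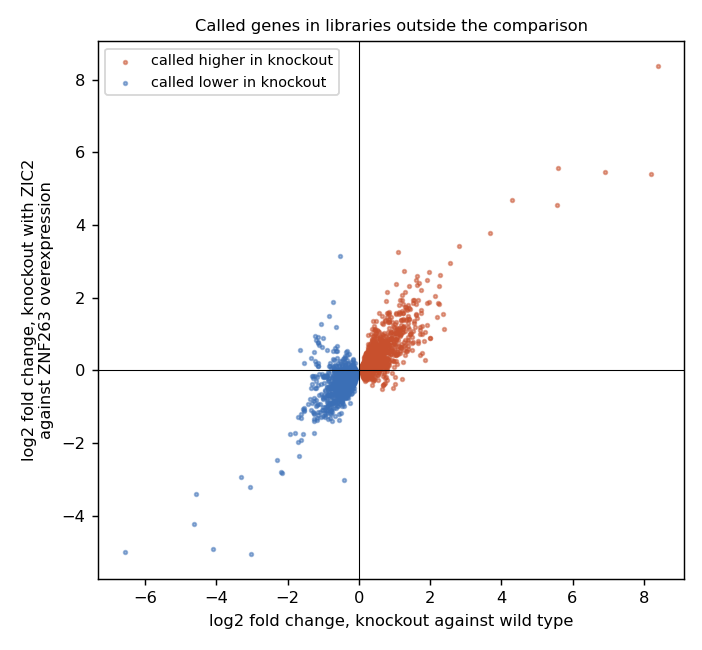
Log2 fold change in knockout against wild type (x axis) and in knockout with ZIC2 against ZNF263 overexpression (y axis), both corrected, for genes called in both fits, without those on the Y chromosome. Most genes higher in knockout (red) lie in the upper right and most lower genes (blue) in the lower left, and a group of lower genes lies above 0 on the y axis.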

How the data were processed

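Poly(A) RNA of 12 H1 libraries was sequenced, per the labels' protocols with a kit that does not mark strand. The authors deposited raw read counts per gene (27130 genes), and the submitters' processing notes name STAR, featureCounts, DESeq2 and hg19 without settings. Genes were tested with edgeR 4.0.16 under R 4.3.3 (quasi-likelihood fit, TMM scaling, default expression filter), using the 12 libraries and a single term for group. Benjamini-Hochberg adjustment ran over 15437 genes, with a threshold of 0.05. The corrected fit added offsets for each library from natural splines (5 degrees of freedom each) on GC content and exonic length. GC content came from GENCODE v29 transcripts matched by symbol, for 97.2% of tested genes. Scripts were tested on simulated counts. The text names ZNF263, POU5F1, SOX2, NANOG and ZIC2. It also names genes near ZNF263, the 12 largest rises and falls (called in both fits, at least 5 CPM, replicates not overlapping, no clone names, no Y-linked gene) and, from each list, the 3 called members that rank first by adjusted p. Some genes that this rule names are not reported here. Further list members were picked as examples once their values had been seen. The members and lists were chosen with earlier results of these data known. Alternatives included DESeq2 1.42.0, other scaling, filters and corrections, and leaving out libraries.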

Additional observations from a re-analysis of the deposited data

How the results depend on the processing

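Genes called in both fits numbered 1549 to 1895 higher and 1223 to 1572 lower when each of the 6 libraries was left out in turn, and 1525 to 2049 higher and 1335 to 2058 lower under the other scalings, filters and corrections. Of the 3591 genes, 74.6 to 99.8% were called again under each of these settings. A test against a minimum fold of 1.5 in the uncorrected fit called 123 higher and 54 lower, in place of 3095 and 2856. DESeq2 called 2756 higher and 2406 lower. The replicate numbers shared by the groups do not pair the samples: deviations of same-numbered libraries correlated at -0.11, -0.09 and 0.04. With the replicate number as a block, 1937 genes were higher and 1580 lower in both fits, and ZNF263 stood at -0.34 (uncorrected log2 fold change). Of the single genes named here and others of the same lists, 7269 values under an alternative stayed on the same side of the threshold, 127 lost and 29 gained a call, and 0 reversed. Low counts limit genes near 1 CPM, for which a fold change depends on few reads.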

Other observations

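Gene families grouped by the stem of their symbols, chosen after their values were seen, gave further shares of calls in both fits. Of 15 tested TIMM genes, which encode the import machinery of the mitochondrial inner membrane, 8 were higher (53.3%) and 0 lower. TIMM13 rose from 169.5, 154 and 158 to 213, 250.4 and 224 CPM, TIMM50 from 175, 168 and 171 to 200.2, 219.9 and 217 CPM and TIMM22 from 42.2, 45.4 and 40.8 to 53.2, 58.6 and 53.8 CPM, with log2 fold changes of 0.33, 0.28 and 0.29. Of 15 tested synaptotagmin genes (SYT), which encode calcium sensors of vesicle release, 6 were lower (40%) and 0 higher. SYT1 fell from 42.7, 45.7 and 44.9 to 36.6, 33.5 and 33.9 CPM and SYT4 from 11.1, 13.8 and 13.1 to 9.27, 8.17 and 8.02 CPM. Without wild type replicate 3, 5 TIMM genes were higher. The count of lower SYT genes was 4 without knockout replicate 3. Leaving out knockout replicate 1 or knockout replicate 2 gave 1 SYT gene called higher. At an unadjusted p under 0.05 in both edgeR fits 0 TIMM genes were lower and 2 SYT genes were higher, and DESeq2 called 0 of either. The median GC content was 48.1% for the TIMM genes and 49.3% for the SYT genes. 

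The cell surface and secreted genes of neural cells were also read as 1 list, protogenin and neural adhesion receptors, with 4 of 25 higher and 7 lower. These counts fell to 2 higher without knockout replicate 1, wild type replicate 2 or wild type replicate 3, and to 4 lower without knockout replicate 2, wild type replicate 2 or wild type replicate 3. NRP1, a receptor for semaphorins and VEGF, rose from 2.83, 3.36 and 3.24 to 5.43, 6.38 and 6.06 CPM, and UNC5D, a netrin receptor, fell from 100.4, 110 and 108 to 94.1, 68.1 and 84.9 CPM. ZNF521, a zinc finger gene of early neural cells, fell from 15.5, 16.7 and 19.1 to 9.48, 8.33 and 9.98 CPM (log2 fold change -0.85). Genes in windows of 5 Mb had corrected median log2 fold changes of -0.21 to 0.16 where at least 15 genes were tested.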
